A study of Mus musculus with 26 samples.

Results

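The genes described here are 9 co-chaperones of the HSP70 system: the J-domain proteins Dnajb1, Dnajb4, Dnaja1, Dnaja2, Dnajb2 and Dnajb6 (6 genes of the HSP40 family) and the BAG-domain proteins Bag1, Bag2 and Bag3 (3 genes). They were found by symbol among 20430 genes in the RNA tables and 19941 genes in the footprint tables, and all 9 were found in both. HSP70 chaperones bind unfolded stretches of protein and release them in a cycle driven by ATP. HSP40 proteins deliver clients and stimulate the ATPase step through their J domain, while BAG proteins act at the other end of the cycle, as nucleotide exchange factors that let ADP and the client leave. In fibroblasts, as in most cells, part of this set is transcribed under heat shock factor HSF1 when proteins misfold, and BAG3 additionally passes HSP70 clients to selective autophagy.

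The cells were NIH3T3, an established line of mouse embryonic fibroblasts, and 26 libraries were analysed: 16 of polyA-selected RNA in 8 groups and 10 of ribosome footprints (the mRNA fragments covered by ribosomes) in 5 groups, with 2 replicates per group. Heat was given as 44 °C for 2 h or as 42 °C for 8 h, with a heat control of its own. Oxidative stress (H2O2) and osmotic stress (KCl) were each given for 2 h or 7 h and shared 1 control, and the footprint groups analysed here were those of H2O2 and KCl. The labels name no genotype, transgene, dose of H2O2 or KCl, or culture of origin, so p-values measure only the spread between these libraries, which may be technical. In bulk libraries such as these, fewer cells with a transcript and less of it per cell cannot be told apart.

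Totals were 30452066 to 42698179 expected counts per library in the heat RNA experiment, 24441877 to 45244430 in the H2O2/KCl RNA experiment and 1460751 to 5168537 in footprints, where the shallowest library was replicate 1 at 2 h of H2O2. Summed fibroblast markers (7 genes, led by Vim) were at 4079 to 10574 TPM in the RNA libraries. In the same libraries the 4 epithelial markers summed to at most 19.6 TPM and the 2 endothelial markers to at most 2.19 TPM. The 3 leukocyte markers summed to at most 44.7 TPM, nearly all of it Cd68, with 1 of the 3 at 0 in every RNA library. In the footprint libraries the fibroblast markers were at 5133 to 10094 TPM. The epithelial, endothelial and leukocyte markers summed there to at most 28.2, 0.53 and 54.7 TPM. Levels are given as CPM, counts scaled to library size by TMM within an experiment, and a gene was called when its Benjamini-Hochberg adjusted p over all genes tested was below 0.05 in edgeR's quasi-likelihood test. All 9 genes passed the filter on low counts in every fit.

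Promoter sequences are shown first. Heat shock factors bind arrays of the unit GAA in alternating orientation. In RefSeq windows (GRCm38.p6, 250 bases before to 50 after each annotated start) the pair of facing units was searched as GAANNTTC and TTCNNGAA, each of which reads the same on both strands and each of which can overlap the other. At least 1 match was found in 4 of the 9 genes (5 of their 15 windows) and in 17% of the 27025 genes of the table (15.1% of 32851 windows). A run of 3 units was found in 1 of the 9 genes, Dnajb6, and in 0.662% of genes. Capitals mark the matches, sequences run 5′ to 3′ on the strand of the gene, and the Dnajb1 stretch, with no match in either of its 2 windows, is the one directly before its first listed start.
Dnajb6 (chr5:29735828-29735887, + strand): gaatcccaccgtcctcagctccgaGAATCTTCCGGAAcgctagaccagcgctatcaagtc
Dnaja1 (chr4:40722318-40722377, + strand): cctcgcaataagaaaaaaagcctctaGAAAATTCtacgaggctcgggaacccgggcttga
Dnajb4 (chr3:152193846-152193885, - strand): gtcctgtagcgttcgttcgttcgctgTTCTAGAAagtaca
Bag3 (chr7:128523615-128523632, + strand): gatgggaccaGAAGTTTC
Dnajb1 (chr8:83608115-83608174, + strand): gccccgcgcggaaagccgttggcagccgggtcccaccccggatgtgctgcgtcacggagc
The Dnajb4 match lies 14 to 7 bases before the start of 1 of its 2 windows, the Dnajb6 run 46 to 34 bases and the Dnaja1 match 124 to 117 bases before the start of the window shown. The Bag3 match lies 43 to 50 bases after the start, at the edge of its window. A match is a stretch of letters and not a measured binding site. Dnajb1, the gene with the largest heat response of the 9, had none in the letters searched. Whether a match bears on the response to heat was not tested.

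Heat at 42 °C for 8 h raised 8 of the 9 mRNAs and lowered 0, led by Dnajb1, Dnajb4 and Bag3. Of all 12747 genes tested, 31.7% were called higher and 31.9% lower. The median log2 fold change of the 9 genes was 0.39, against -0.01 over all genes tested. Heat at 44 °C for 2 h raised 6 of the 9 and lowered 1, with backgrounds of 35.4% called higher and 35.7% called lower, and a median of 0.57 against -0.00034. On log2(TPM + 1) the median of all genes at 42 °C was -0.16, and 23.6% of the calls there were higher against 49.8% on TMM-scaled counts. The directions of the called genes in both heat comparisons were the same on that scale, on which Bag1 was also called higher at 44 °C, and at 42 °C the Bag1 call was lost and Dnajb2 was called lower.

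Dnajb1 encodes the main stress-inducible HSP40 of the cytosol. Its mRNA was at 70.9 and 75.3 CPM in the heat control, 131.5 and 139.7 CPM at 44 °C, and 710 and 700 CPM at 42 °C. The groups did not overlap. The rise was 1.86-fold at 44 °C (log2 0.89, SE 0.05) and 9.66-fold at 42 °C (log2 3.27, SE 0.05), with Benjamini-Hochberg adjusted p of 9.48e-10 and 5.85e-15 in edgeR. In the other experiment the control stood at 70.8 and 71.5 CPM. H2O2 left Dnajb1 at 75.05 and 72.75 CPM after 2 h, just above the control and not called, while after 7 h it was at 137.4 and 138.9 CPM, a rise of 1.94-fold (log2 0.96, SE 0.06). KCl gave 77.6 and 70.8 CPM at 2 h, overlapping the control, and 72.8 and 78.6 CPM at 7 h, just above it (log2 0.06, SE 0.06, and 0.09, SE 0.06, neither called). In order of level, 42 °C stood far above all other groups, 44 °C and 7 h of H2O2 came next at 135.6 and 138.2 CPM on average, and the 5 remaining groups had means of 71.1 to 75.7 CPM, each overlapping its neighbour in that order; the heat and H2O2/KCl libraries were scaled separately.

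Dnajb4, a close relative of Dnajb1 in the same class, moved under all 3 stresses. It was at 49.4 CPM in both heat controls, 56.7 and 57.8 CPM at 44 °C, and 206.6 and 203.0 CPM at 42 °C, a 4.15-fold rise at 42 °C (log2 2.05, SE 0.04) against 1.16-fold at 44 °C (log2 0.21, SE 0.04). The H2O2/KCl control stood at 52.5 and 52.6 CPM. After 2 h of H2O2 Dnajb4 was at 79.1 and 78.7 CPM (1.5-fold higher) and after 7 h at 38.3 and 39.5 CPM (1.35-fold lower), so the groups lay on opposite sides of the control without overlap. KCl gave 128.5 and 135.9 CPM at 2 h, 2.52-fold higher (log2 1.33, SE 0.06), and 54.3 and 53.9 CPM at 7 h (log2 0.04, SE 0.06, not called). The authors' gene overlaps the neighbouring Fubp1 and a lncRNA in RefSeq, and the sources used here do not say if counting used strand.

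Dnaja1 and Dnaja2 are the general cytosolic HSP40 proteins of class A, which carry a zinc-finger region and bind clients themselves. Per transcript length Dnaja1 had the highest mRNA level of the 9 in 7 of 8 groups, with group means of 221 to 521 TPM, and at 7 h of H2O2 Bag1 stood above it (271 against 221 TPM). Its mRNA went from 381 and 378 CPM in the heat control to 688 CPM in both libraries at 44 °C (1.81-fold) and to 898 and 909 CPM at 42 °C (2.38-fold). Under KCl it rose from 412 and 417 CPM to 661 and 743 CPM at 2 h (1.69-fold) and 737.9 and 728.5 CPM at 7 h (1.77-fold). Under H2O2 it stayed at 405.5 and 401.9 CPM at 2 h and fell by 0.22 on the log2 scale (SE 0.06) at 7 h, to 362 and 352 CPM. Dnaja2 was at 227 and 220.8 CPM in the H2O2/KCl control, 295.3 and 296 CPM at 2 h of H2O2, 266.4 and 310.8 CPM at 2 h of KCl and 304.3 and 296.1 CPM at 7 h of KCl, all above the control. It rose by 0.37 (SE 0.04) at 42 °C, by 0.40 (SE 0.07) after 2 h with H2O2, and by 0.37 (SE 0.07) and 0.42 (SE 0.07) in the 2 KCl groups on the log2 scale. At 44 °C it was at 185.2 and 181.3 CPM against 189.8 and 191.0 CPM in the control (log2 -0.06, SE 0.04, not called).

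Dnajb2 and Dnajb6 are HSP40 proteins known for keeping aggregation-prone clients soluble. Dnajb2 was higher at 44 °C, where it reached 72.7 and 74.4 CPM against 39.8 and 43.1 CPM in the control (1.78-fold, log2 0.83, SE 0.05), but it was at 39.6 and 40.9 CPM at 42 °C (log2 -0.04, SE 0.06, not called), where log2(TPM + 1) called it lower (-0.17, limma adjusted p 0.0255). It rose at 7 h of H2O2 to 60.9 and 60.8 CPM from 40.6 and 39.0 CPM (1.53-fold), and it fell at 2 h of KCl to 25.6 and 22.3 CPM (1.66-fold lower). Neither of these groups overlapped the control. Dnajb6 rose at both heat treatments, from 134.6 and 134.5 CPM to 196.4 and 203.7 CPM at 44 °C (1.49-fold) and 163 CPM in both libraries at 42 °C (1.21-fold). Its largest change came at 7 h of KCl, with 383 and 391 CPM against 169 and 174 CPM in the control (2.26-fold, log2 1.17, SE 0.06), while 2 h of KCl gave 211.6 and 207.2 CPM (1.22-fold). H2O2 gave log2 changes of 0.01 (SE 0.05) at 2 h and 0.12 (SE 0.05) at 7 h, neither called.

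Bag3, the stress-inducible BAG protein, was at 58.2 and 63.8 CPM in the heat control, 99.5 and 106.0 CPM at 44 °C and 241.6 and 254.3 CPM at 42 °C. The groups were separate, and the rises were 1.69-fold (log2 0.75, SE 0.05) and 4.07-fold (log2 2.02, SE 0.05). In the other experiment its control stood at 56.3 and 55.3 CPM. KCl raised it to 76.1 and 80.1 CPM at 2 h (1.40-fold) and to 82.2 CPM in both libraries at 7 h (1.47-fold). H2O2 left it at 52.2 and 55.5 CPM at 2 h (not called) and lowered it to 31.9 and 32.4 CPM at 7 h, 1.73-fold lower (log2 -0.79, SE 0.06, adjusted p of 3.61e-08 in edgeR with Benjamini-Hochberg adjustment).

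Bag1, which also binds the proteasome and RAF kinase, moved at 7 h of H2O2, from 108.1 and 115.4 CPM to 168.2 and 164.5 CPM (1.49-fold, log2 0.57, SE 0.06). Its only other call against a control was at 42 °C, with 132.9 and 118.6 CPM against 106.1 and 111.2 CPM (log2 0.21, SE 0.05), and this call was lost on log2(TPM + 1) (0.021, limma adjusted p 0.727) and without replicate 1 at 42 °C (0.13, edgeR adjusted p 0.0919). The same log2(TPM + 1) scale gave 3 calls that edgeR did not make, with Bag1 higher at 44 °C (0.13, limma adjusted p 0.0402) and lower at 2 h and 7 h of KCl (-0.22, limma adjusted p 0.0069, and -0.18, limma adjusted p 0.0159). Bag2, a cofactor that restrains the ubiquitin ligase CHIP, ranged from 17.1 to 37.0 CPM over the 16 libraries. It was lower at 44 °C (24.3 and 22.0 CPM against 27.1 and 27.9 CPM) and higher at 42 °C (37.0 and 35.1 CPM). Lower values were also found after 7 h with KCl (17.1 and 17.8 CPM against 22.8 and 23.2 CPM, log2 -0.39, SE 0.08) and at 7 h of H2O2 (20.6 and 18.3 CPM, log2 -0.23, SE 0.08), a call lost without replicate 2 of that group or either control library. The 44 °C call was lost without replicate 2 at 44 °C (-0.18, edgeR adjusted p 0.051).

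**Figure D1:**
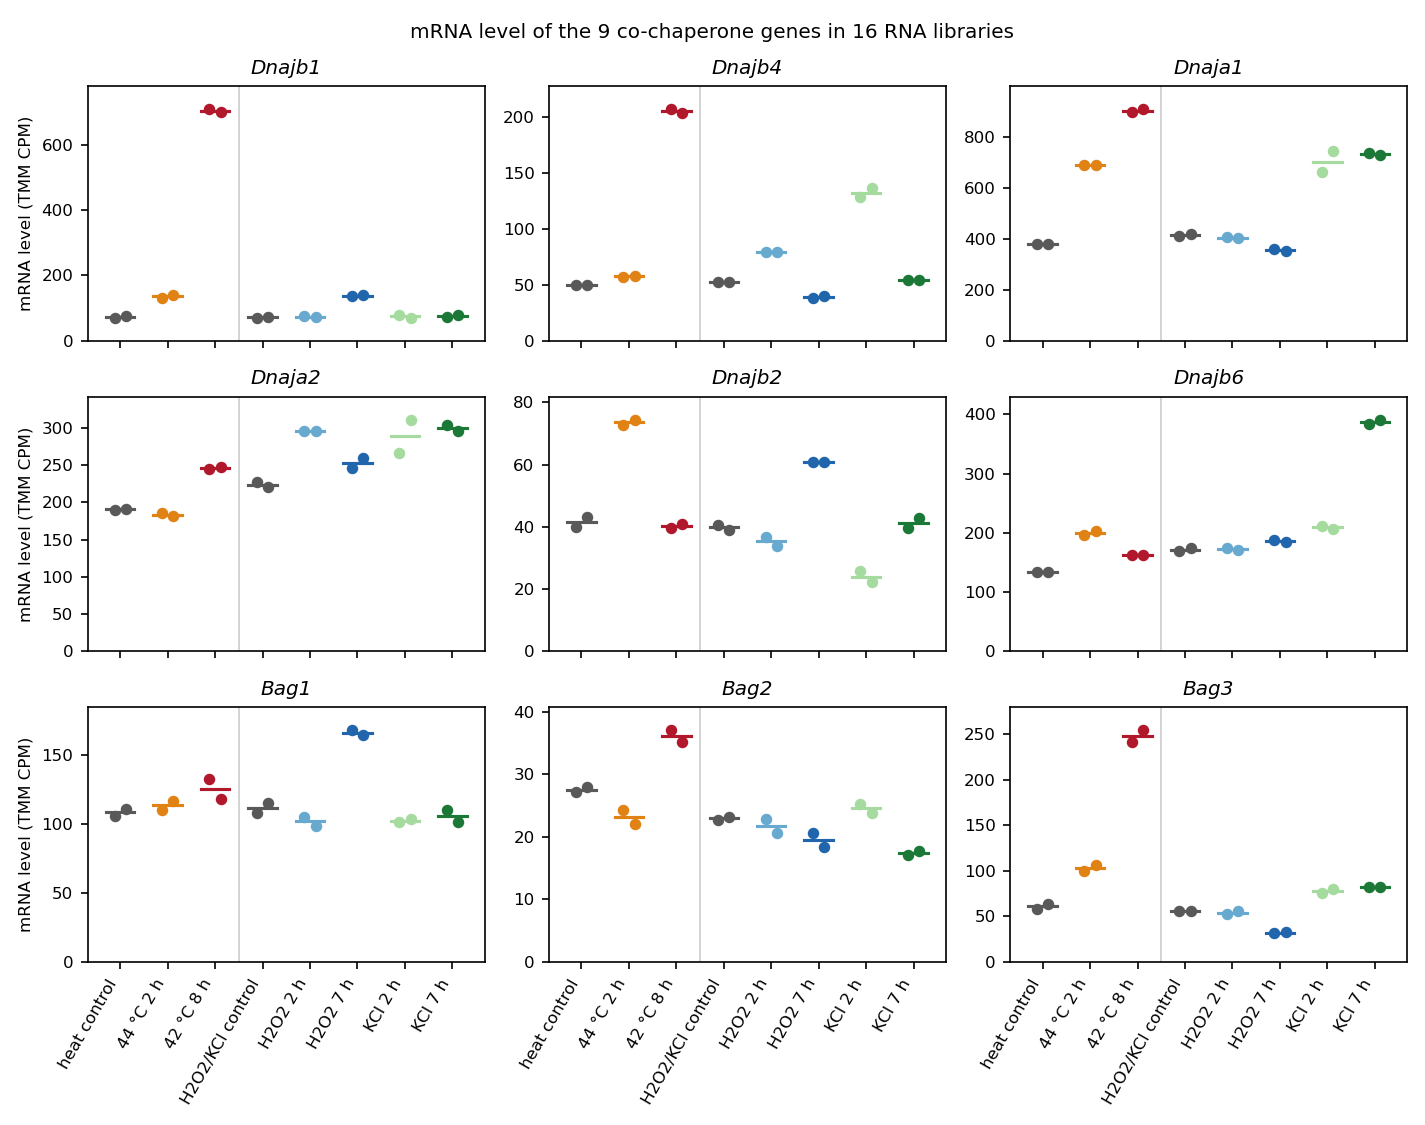
mRNA level (TMM-scaled CPM, linear axis from 0) of each gene in the 16 RNA libraries; points are libraries, short lines group means, and the grey line parts the heat experiment from the H2O2/KCl experiment. Dnajb1 at 42 °C, at 710 and 700 CPM, stands apart from its other libraries, while Dnajb6 peaks at 7 h of KCl (383 and 391 CPM) and Bag1 at 7 h of H2O2 (168.2 and 164.5 CPM).

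H2O2 called 2 of the 9 mRNAs higher at 2 h (Dnajb4 and Dnaja2) and 0 lower, against 27.3% of 13256 genes higher and 26.5% lower. At an unadjusted p below 0.05, 3 of the 9 passed, and DESeq2 called 2. Without replicate 1 of the 2 h H2O2 group the count was 4, with Dnajb2 and Bag1 added as lower. Dnajb2 was also called lower there without the filter on low counts (-0.19, edgeR adjusted p 0.0362) and with only the 2 groups fitted (-0.17, edgeR adjusted p 0.0492). At 7 h of H2O2, 4 were called higher (Dnajb1, Dnajb2, Bag1 and Dnaja2) and 4 lower (Bag3, Dnajb4, Bag2 and Dnaja1), against 39.4% higher and 31.1% lower over all genes. The Dnaja2 call (log2 0.17, SE 0.07) was lost with DESeq2, with RLE scaling, on log2(TPM + 1) and with only the 2 groups fitted. It was also lost without any 1 of its 4 libraries. Without replicate 2 at 7 h, Dnaja1, Dnaja2 and Bag2 were at -0.20, 0.13 and -0.16 on the log2 scale and no longer called.

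KCl called 5 of the 9 higher at 2 h (Dnajb4, Dnaja1, Bag3, Dnaja2 and Dnajb6) and 1 lower (Dnajb2), where 27.2% of all genes were higher and 27% lower. The Dnajb6 call at 2 h was lost on log2(TPM + 1) (0.083, limma adjusted p 0.138). At 7 h of KCl 4 were higher (Dnajb6, Dnaja1, Bag3 and Dnaja2) and 1 lower (Bag2), against 37.2% and 31.6% of all genes. Dnajb1 was not called at either time of KCl. The medians over the 9 genes were -0.04 and 0.12 for 2 h and 7 h of H2O2 and 0.29 and 0.09 for the same times of KCl, beside -0.00095 and 0.08 for H2O2 and 5.1e-15 and 0.04 for KCl over all genes.

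**Figure D2:**
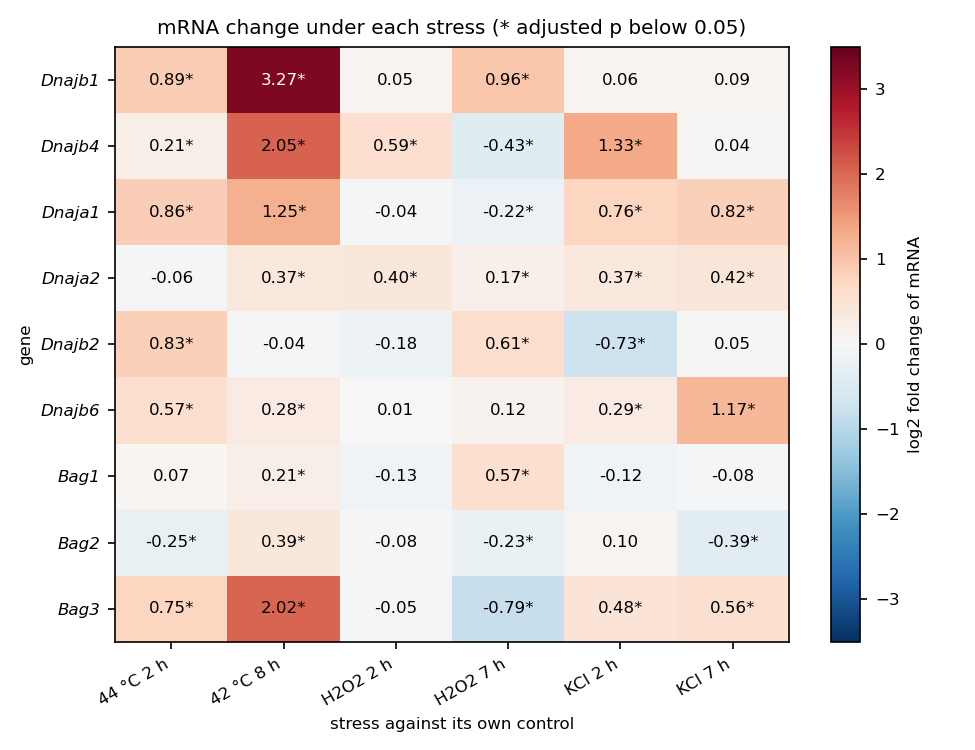
Log2 fold change of mRNA for each gene (rows) under each stress against its own control (columns), with an asterisk for an adjusted p below 0.05; colour runs from blue (lower) to red (higher). The 42 °C column holds the largest rise, 3.27 for Dnajb1, and the 7 h H2O2 column holds the largest fall, -0.79 for Bag3.

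The stresses were also compared directly, since comparisons that share a control are not independent. Temperature and duration both differ between the 2 heat treatments, and 7 of the 9 mRNAs were higher at 42 °C (37.9% of all genes) and 2 were lower, Dnajb2 and Dnajb6 (37.2% of all genes). Dnajb1 differed by 2.38 (SE 0.05), Dnajb4 by 1.84 (SE 0.04), Bag3 by 1.27 (SE 0.05) and Dnajb2 by -0.87 (SE 0.05) on the log2 scale. Bag1 was called higher at 42 °C by 0.15 (SE 0.05) but was at -0.11 on log2(TPM + 1), where it was not called, and the call was also lost without replicate 1 of either heat group. Bag2 differed by 0.64 (SE 0.07), with the 2 heat groups on opposite sides of the control.

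Between 7 h and 2 h of H2O2, 3 of the 9 were higher at 7 h (Dnajb1, Dnajb2 and Bag1) and 4 lower (Dnajb4, Bag3, Dnaja2 and Dnaja1), with 37.3% and 36.1% of all genes called. Dnajb4 fell by 1.02 on the log2 scale (SE 0.06) between these times. The Dnaja1 call was lost without replicate 2 at 2 h (-0.19, edgeR adjusted p 0.0596) or at 7 h (-0.16, edgeR adjusted p 0.111), and the Dnaja2 call without replicate 1 at 7 h (-0.20, edgeR adjusted p 0.0572). Between 7 h and 2 h of KCl, 2 were higher at 7 h (Dnajb6 by 0.89, SE 0.06, and Dnajb2 by 0.78, SE 0.08) and 2 lower (Dnajb4 by -1.29, SE 0.06, and Bag2 by -0.49, SE 0.09), with 35.1% and 33.7% of all genes called. Dnajb4 thus stood lower at 7 h than at 2 h in both stresses, and Dnajb2 higher. The labels give the shared control no time, and a change with time alone was not tested.

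At 2 h, H2O2 was above KCl for 1 of the 9 (Dnajb2, by 0.56, SE 0.08) and below it for 4 (Dnaja1, Dnajb4, Bag3 and Dnajb6), where 27% and 24.2% of all genes were called. At 7 h it was above KCl for 3 (Dnajb1, Bag1 and Dnajb2) and below it for 5 (Bag3, Dnajb6, Dnaja1, Dnajb4 and Dnaja2), against 41% and 37.4% of all genes. The differences at 7 h were largest for Bag3 (-1.35, SE 0.06), Dnajb6 (-1.06, SE 0.06), Dnaja1 (-1.04, SE 0.06) and Dnajb1 (0.87, SE 0.06) on the log2 scale. Bag3 and Dnaja1 were called lower under H2O2 and higher under KCl, each against the shared control.

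Footprint counts per library ranged from 21 to 80 for Bag2 and 28 to 89 for Dnajb2 up to 363 to 3361 for Dnaja1. Standard errors of the log2 changes against control were 0.19 to 0.37 in footprints, against 0.04 to 0.09 over the mRNA comparisons, and Dnaja1, with the most counts, had an SE of 0.23 at each time and stress, no smaller than those of Dnajb1 (0.21 to 0.22). At 2 h of H2O2, edgeR called 0 of the 9 in either direction, DESeq2 and limma-trend also called 0, and 3 had an unadjusted p below 0.05. Few genes were called in that comparison, 1.14% higher and 0.768% lower of 10545. At 7 h of H2O2, 2 were higher (Dnajb2 and Dnajb1) and 1 lower (Dnajb4), against 17.2% and 10.6% of all genes. Dnajb1 footprints went from 52.1 and 58.8 CPM to 98.5 and 122.4 CPM, 1.99-fold higher (log2 0.99, SE 0.21), beside the 1.94-fold rise of its mRNA. Dnajb2 footprints went from 34 and 36 counts to 77 and 89 counts, 2.61-fold higher after scaling (log2 1.38, SE 0.34). Both calls were lost without footprint replicate 2 at 7 h (0.79, adjusted p 0.0595 for Dnajb1, and 1.23, adjusted p 0.0694 for Dnajb2, in edgeR), which left 1 of the 9 called, and that of Dnajb2 also without control replicate 1 (1.22, adjusted p 0.062).

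Under KCl, 1 of the 9 was called higher in footprints at 2 h (Dnajb4) and 0 lower, against 1.79% and 5.06% of all genes, and 2 at 7 h (Dnaja1 and Dnajb6) with 0 lower, against 10.5% and 9.83%. Dnajb4 footprints went from 71.2 and 61.0 CPM to 121.4 and 135.6 CPM at 2 h (1.94-fold). Dnaja1 footprints went from 440 and 351 CPM to 758 and 953 CPM at 7 h (2.16-fold), and Dnajb6 footprints from 111.8 and 108.8 CPM to 193 and 230 CPM (1.92-fold). All 3 were also called higher in mRNA. The Dnajb4 call at 2 h was lost on log2(TPM + 1) (0.95, limma adjusted p 0.0514) and without replicate 2 of either group, Dnajb6 at 7 h on log2(TPM + 1) (0.69, limma adjusted p 0.108) and without any 1 of its 4 libraries, and Dnaja1 at 7 h without replicate 2 of either group. DESeq2 added Bag3 as higher at 2 h (0.92, DESeq2 adjusted p 0.0492) and Dnaja2 as higher at 7 h (0.59, DESeq2 adjusted p 0.0374).

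**Figure D3:**
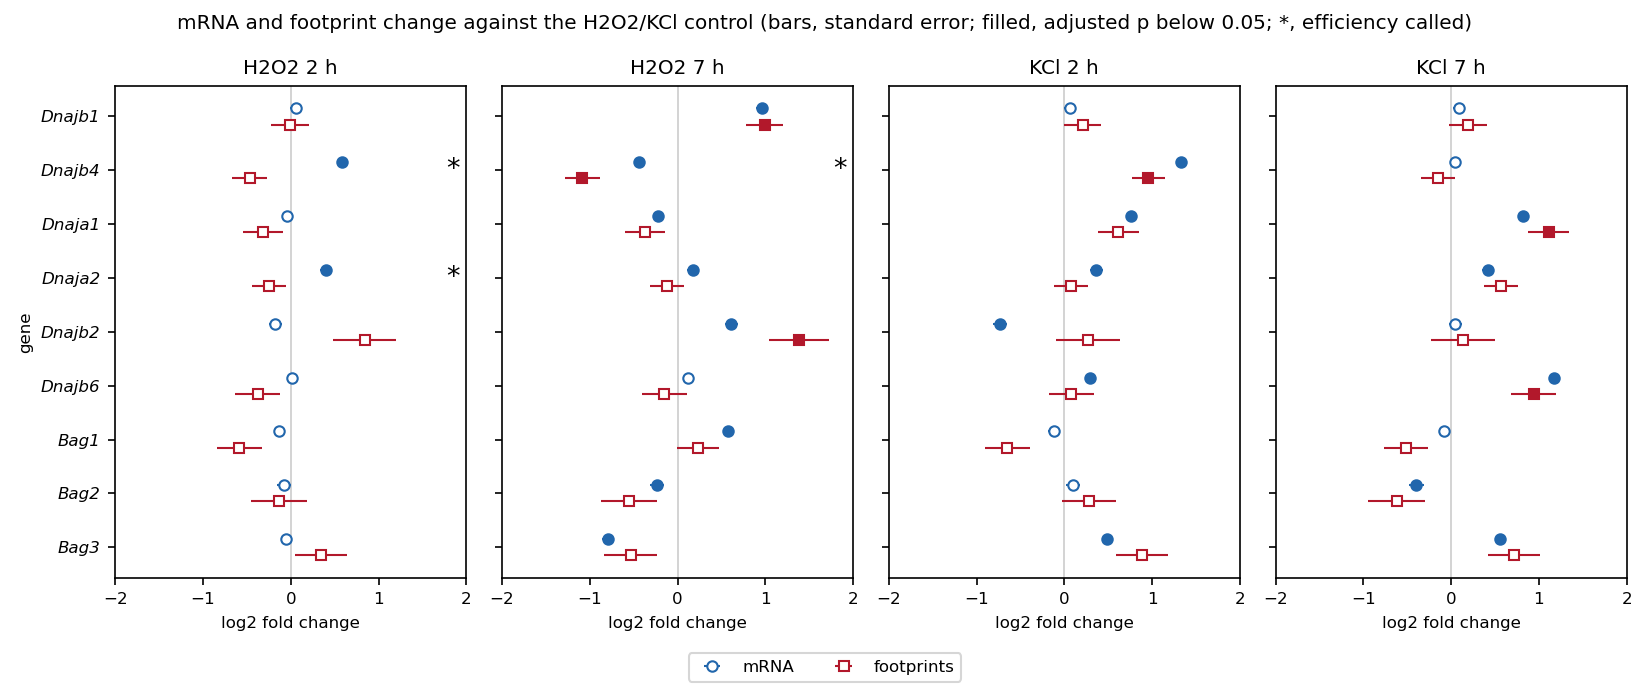
Log2 fold change against the H2O2/KCl control for mRNA (blue circles) and footprints (red squares), with bars of 1 standard error; filled symbols passed an adjusted p of 0.05 and asterisks mark a called change of translational efficiency. Footprint bars are wider than mRNA bars throughout, and at 2 h of H2O2 Dnajb4 and Dnaja2 lie to the right of 0 in mRNA and to the left of it in footprints.

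Translational efficiency, the change of footprints beyond that of mRNA, was tested as an interaction over 20 libraries. Footprint and RNA libraries were scaled by TMM within their own kind. Changes of footprints and of efficiency are therefore relative to the other genes, and a shift shared by all genes would be scaled away. At 2 h of H2O2, 2 of the 9 were lower (Dnajb4 and Dnaja2) and 0 higher, where 7.46% of 10480 genes were called lower and 3.98% higher. DESeq2 called 3 of the 9 there, with Dnajb2 added as higher (0.91, DESeq2 adjusted p 0.0297). Dnajb4 mRNA rose 1.5-fold while its footprints were at 44.7 and 50.2 CPM against 71.2 and 61.0 CPM in the control, an efficiency 2.11-fold lower (log2 -1.08, SE 0.17, edgeR adjusted p of 0.00073 with Benjamini-Hochberg adjustment). As a ratio of TPM, Dnajb4 stood at 1.74 and 1.49 in the control libraries and at 0.643 and 0.727 at 2 h of H2O2, without overlap. At 7 h of H2O2 Dnajb4 was the only 1 of the 9 called (lower, log2 -0.65, SE 0.17, edgeR adjusted p 0.025 with Benjamini-Hochberg adjustment), with 0 higher, against 4.57% lower and 4.69% higher over all genes. Its TPM ratios at 7 h, 1.48 and 0.996, both lay below the lower control ratio of 1.49, the first only just. As a ratio of CPM, which has no length divisor, Dnajb4 stood at 1.35 and 1.16 in the control. Under H2O2 it was 0.566 and 0.637 (2 h) and 0.878 and 0.725 (7 h), again without overlap with the control. The call at 7 h was lost without any 1 of 6 of its 8 libraries (adjusted p 0.0814 to 0.106) and without the filter on low counts (-0.67, edgeR adjusted p 0.0534).

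Dnaja2 at 2 h of H2O2 had an efficiency 1.60-fold lower (log2 -0.68, SE 0.20, edgeR adjusted p 0.0321). Its TPM ratio was 1.12 and 0.934 in the control and 0.536 and 0.700 under H2O2. The call was lost without any 1 of 6 of the 8 libraries and without the filter on low counts. Without footprint replicate 2 at 2 h of H2O2, only the shallowest footprint library was left in that group. Dnajb2 was then at 1.49, Dnajb6 at -1.07 and Dnaja1 at -0.72 on the log2 scale, each gaining a call. The count of the 9 thus changed with which footprint and RNA libraries were kept. KCl called 0 of the 9 at 2 h (3.58% of all genes higher, 9.18% lower) and 0 at 7 h (1.69% higher, 3.88% lower). At an unadjusted p below 0.05 there were 3 at 2 h and 0 at 7 h, and DESeq2 called 1 at 2 h, Dnajb2 (1.03, adjusted p 0.0161), and 0 at 7 h. Dnajb2 at 2 h was called by edgeR as well with RLE scaling (adjusted p 0.048) and without the filter on low counts (adjusted p 0.0456).

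**Figure D4:**
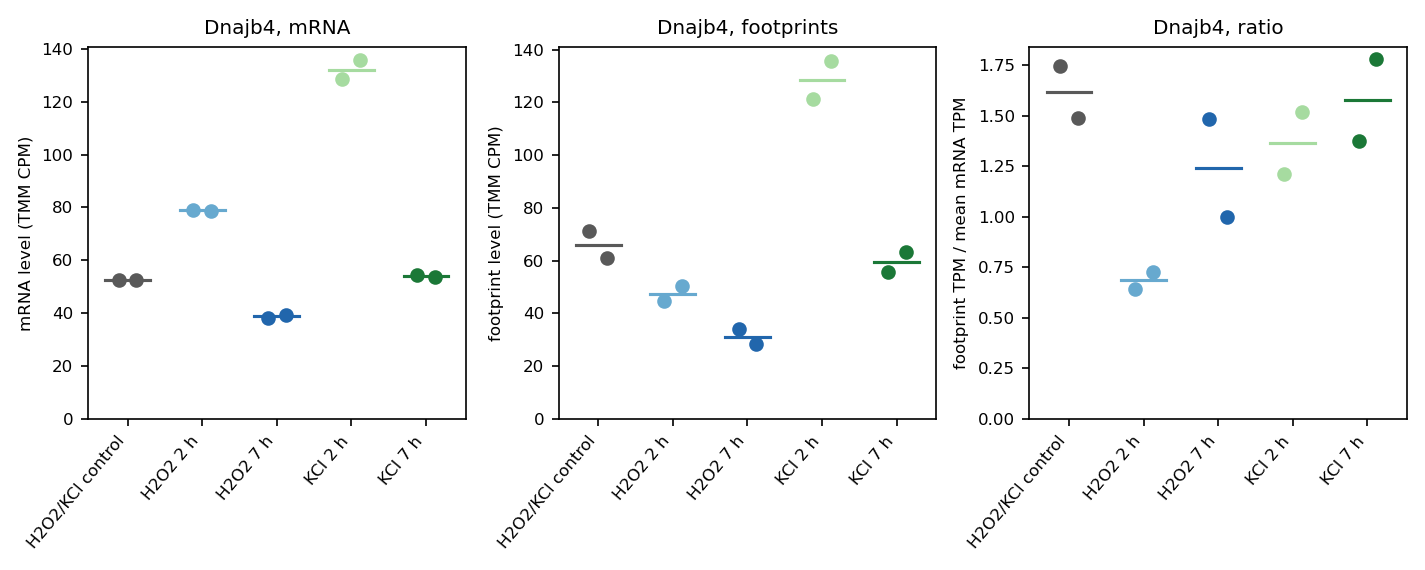
Dnajb4 in the 5 groups of the H2O2/KCl experiment: mRNA (left) and footprint (middle) levels in TMM-scaled CPM, and the ratio of each footprint library's TPM to the mean mRNA TPM of its group (right); points are libraries, lines group means, and all axes start at 0. At 2 h of H2O2 the mRNA lies above the control and the ratio falls to 0.643 and 0.727 from 1.74 and 1.49.

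In the control the ratio of footprint TPM to mRNA TPM was highest for Dnajb4 (1.62) and lowest for Bag1 (0.205), below which lay 7.06% of 10467 genes, and Dnajb2 (0.305), below which lay 15.6%. The other 6 genes had ratios of 0.703 (Dnajb6) to 1.35 (Bag2), and the median over all genes was 0.639. The order depended on the scale. As a ratio of CPM, an alternative chosen after seeing the data, the lowest were Dnajb2 (0.228) and Bag1 (0.349) and the highest Bag3 (1.60) and Dnajb4 (1.26). The length divisors of the deposited TPM differed between the footprint and mRNA tables by gene, since TPM per CPM in the control was 1.72 in mRNA and 1.01 in footprints for Bag1, and 1.26 in mRNA and 2.29 in footprints for Bag2. The Bag1 ratio of TPM was 0.244 and 0.166 in the 2 control footprint libraries and did not exceed 0.203 in any H2O2 library.

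Other genes of the HSP70 system were counted from lists, by mRNA here and in the next paragraph unless footprints are named. The 11 HSP70 partners were HSP70 and HSP110 chaperones, their cofactors and the small heat shock protein Hspb8. Of these, 9 were higher and 1 lower at 44 °C (35.4% and 35.7% of all genes). At 42 °C, 8 were higher and 1 lower (31.7% and 31.9%). KCl raised 9 and lowered 1 by 2 h (27.2% and 27% of all genes), and raised 8 and lowered 2 by 7 h (37.2% and 31.6%). Under H2O2 1 was higher at each time (27.3% and 39.4% of all genes), while 6 were lower at 2 h and 7 at 7 h (26.5% and 31.1%). The list's median log2 changes were 0.67 with heat of 44 °C and 0.79 with 42 °C. Under KCl they were 0.41 (2 h) and 0.63 (7 h), while H2O2 gave -0.16 (2 h) and -0.26 (7 h), beside the medians over all genes given above. The largest rise was that of Hspa1a at 42 °C, by 7.22 on the log2 scale (SE 0.16). In footprints, 1 of the 11 was higher and 0 lower at 2 h of H2O2 (1.14% and 0.768% of all genes). At 7 h of H2O2, 3 were higher and 3 lower in footprints (17.2% and 10.6%). Hspa1a had the largest footprint rise at both times, by 2.24 (SE 0.34) and 2.90 (SE 0.34). Hspa1a and Hspa1b encode the inducible HSP70 and are near-identical, so the split of reads between them is uncertain. Of the other DNAJA and DNAJB genes 7 of 11 passed the filter on low counts, and 5 rose and 2 fell at 44 °C (71.4% and 28.6%, against 35.4% and 35.7% of all genes), while 2 rose and 2 fell at 42 °C (28.6% each, against 31.7% and 31.9%). Dnaja4 led the rises in both heat treatments (0.92, SE 0.07, and 2.13, SE 0.07), and Dnajb9, an HSP40 of the endoplasmic reticulum, led them in all 4 H2O2 and KCl groups, by 1.13 to 2.07.

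The DNAJC class had 28 of 31 genes tested, with these numbers of rises and falls: 8 and 12 at 44 °C, 10 and 9 at 42 °C, 6 and 7, then 10 and 11, with H2O2 at 2 h and 7 h, and 8 and 8, then 11 and 9, with KCl at those times. As shares, 21.4% to 39.3% rose, against 27.2% to 39.4% of all genes, and 25% to 42.9% fell, against 26.5% to 35.7%, so the class lay near the background. Its medians lay between -0.05 and 0.06. Of the BAG genes outside the set, Bag4 rose in both heat treatments (0.52, SE 0.05, at 44 °C; 0.36, SE 0.05, at 42 °C), after 7 h with H2O2 (0.91, SE 0.07) and after 7 h with KCl (0.23, SE 0.08), and Bag5 rose at 2 h of H2O2 (0.53, SE 0.10) and fell at 2 h and 7 h of KCl (-0.78, SE 0.11, and -1.69, SE 0.11). Bag6 fell at 2 h and 7 h of H2O2 (-0.18, SE 0.06, and -0.45, SE 0.06). The factors Hsf1 and Hsf2 both rose in mRNA at 44 °C and 42 °C, by 0.38 to 0.50, and both fell at 7 h of H2O2. Hsf2 rose under KCl, by 1.06 (SE 0.07) at 2 h and 0.84 (SE 0.07) at 7 h.

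RNA patterns were compared by Pearson's r over 16 libraries of log2(CPM + 1) centred on each experiment's control. Out of 9167 genes with a mean of at least 10 CPM, some were most like Dnajb1. These genes were Dnaja4 (0.95), Rpph1 (0.94), Tomm5 (0.93), Ap1ar (0.91) and Mob4 (0.91). For Bag3 they were Hspa1b (0.96), Cry1 (0.95), Dennd5b (0.95), Ubqln1 (0.93) and Hspa1a (0.93), and Dnaja1 ranked 10th with 0.91. Between Dnajb1 and Bag3 themselves r was 0.72, and between Dnajb1 and Dnajb6 it was 0.01. These are descriptions over libraries that share a control within each experiment and differ in depth. The 42 °C pair holds the largest values of Dnajb1 and Bag3.

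The authors' deposited calls of downstream-of-gene transcripts, which arise when RNA polymerase continues beyond a gene's end, covered 11 neighbour pairs with 1 of the 9 genes, 6 as the upstream and 5 as the downstream gene. In the authors' deposited table Bag1 towards B4galt1 was called in 16 of 16 libraries and Dnaja1 towards Spink4 in 8: both at 42 °C, 1 at 44 °C and neither heat control, but also both H2O2/KCl controls, both libraries of 2 h H2O2 and 1 of 2 h KCl. Dnajb1 towards Gipc1 was called in both 42 °C libraries and in no other, and Dnajb4 towards Gipc2 in both 2 h KCl libraries, in 1 library at 42 °C and in 1 of the 2 h H2O2 group. Over the 11 pairs 26.1% of the library calls were positive, against 28.5% over all 6399 pairs. Read-in is a call that such transcription reaches into the downstream gene. It was made in 0 of 176 library calls over the 11 pairs, against 1.38% of calls over all pairs. The deposited read-in ratio was highest for Dnajb4 towards Gipc2 (up to 0.45, median 0.14) and had no value for Dnaja1 towards Spink4.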

How the data were processed

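Per the file headers, the authors deposited RSEM expected counts per gene (whole numbers, with rounding applied before testing) and TPM for the same libraries. They also deposited true or false calls of downstream-of-gene and read-in transcription and a read-in ratio per neighbour pair. The submitters' processing notes name STAR, RSEM, Bowtie and build mm10, without versions or roles. Another 12 columns carry names of no sample in the labels and were left out. Groups came from the labels.

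Counts were tested with edgeR 4.0.16 in R 4.3.3 (TMM, filterByExpr, quasi-likelihood F test, Benjamini-Hochberg over all genes, threshold 0.05), with the heat RNA (12747 genes tested), H2O2/KCl RNA (13256) and footprint (10545) libraries fitted separately and translational efficiency as the interaction of library type and group (10480 genes). The SE is the log2 change divided by the root of F. The scripts were checked on simulated counts. Alternatives were DESeq2 1.42.0, RLE scaling, no filter on low counts, a replicate block, limma 3.58.1 on log2(TPM + 1), voom with a weight per library type for efficiency, fits of only the compared groups, and each library left out in turn.

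All 9 genes were reported in every comparison. For list genes the largest called rise and fall could be named, and for Dnajb1 and Bag3 the 5 genes most alike. The genes, lists and tests were chosen with earlier results of these data known. RefSeq sequences and coordinates are of GRCm38.p6, which mm10 names in the UCSC system. All 9 genes matched the promoter table. Replicate libraries were not identical in any group.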

Additional observations from a re-analysis of the deposited data

Results flagged for a closer look

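Each of 4 results is a pair of conditions in which 1 gene was called in opposite directions against the same control and differed when the conditions were tested against each other in edgeR. The share of all genes that meet this rule was not counted. In the comparisons with control involved, 26.5% to 39.4% of all genes were called in each direction. Bag2 mRNA was below the heat control at 44 °C and above it at 42 °C, and the difference was 0.64 on the log2 scale. Dnajb4 mRNA was above its control at 2 h of H2O2 and below it at 7 h, a difference of -1.02. Dnaja1 and Bag3 mRNA were below the control at 7 h of H2O2 and above it at 7 h of KCl, with differences of -1.04 and -1.35. The call of Bag2 at 44 °C was lost without replicate 2 of that group (-0.18). That of Dnaja1 at 7 h of H2O2 was likewise lost without replicate 2 of its group (-0.20).

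Calls of downstream-of-gene transcription in the authors' deposited table are not used by the comparisons of levels. For 3 pairs they were present in both libraries of a stress and in none of the 4 control libraries of both experiments. This rule was applied only to the 11 pairs with a gene of the set. The share of all 6399 pairs that meet it was not counted. Of the library calls, 26.1% were positive over the 11 pairs, against 28.5% over all pairs. Dnajb4 towards Gipc2 was called in 2 of 2 libraries at 2 h of KCl, Slc5a2 towards Bag3 in 2 of 2 at 2 h of H2O2 and Dnajb1 towards Gipc1 in 2 of 2 at 42 °C. At those times Dnajb4 and Dnajb1 mRNA were 2.52-fold and 9.66-fold above control, and Bag3 mRNA was not called (log2 -0.05). Dnaja1 towards Spink4 was called in 2 of 2 libraries at 42 °C and in 0 of 2 heat controls, and is not counted among the 3 because both H2O2/KCl controls were called too.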

How the results depend on the processing

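Of 171 values of the 9 genes 78 were called, and of 789 recomputed called values 740 kept call and direction, 48 lost the call in the same direction and 1 changed direction. Under the alternatives run, 0 were called in the other direction. Of 1029 recomputed uncalled values 25 gained a call and 58 changed sign without one. The cause was not tested for any of these changes.

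Counts of the 9 genes called moved by over 1.5 times as follows. For footprints at KCl 2 h DESeq2 and no filter on low counts each gave 2 and log2(TPM + 1) gave 0, against 1, and at KCl 7 h log2(TPM + 1) gave 1, against 2. For efficiency no filter gave 1 at H2O2 2 h, against 2, and 0 at H2O2 7 h, against 1, and at KCl 2 h DESeq2, RLE scaling and no filter each gave 1, against 0. Leaving out 1 library at a time gave 2 to 4 for mRNA at H2O2 2 h, 5 to 7 for mRNA at H2O2 7 h, 1 to 3 for footprints at H2O2 7 h, 0 to 1 for footprints at KCl 2 h and at KCl 7 h, and 1 to 5, 0 to 1 and 0 to 1 for efficiency at H2O2 2 h, H2O2 7 h and KCl 2 h. A group left with 1 library was assumed to vary like the other groups.

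Within each group, the difference of replicate 1 from replicate 2 in log2(CPM + 1) was taken for every gene. Replicate numbers were taken to pair samples only if these differences correlated above 0.1 between every pair of groups. This was not met. Correlations of the differences were 0.036 to 0.11 in the heat RNA (1 of 3 pairs of groups above 0.1). They were -0.13 to 0.17 in the H2O2/KCl RNA (2 of 10) and -0.40 to 0.44 in footprints (6 of 10, median 0.20). With a replicate block the counts stayed the same in 18 of 19 comparisons, and footprints at KCl 7 h went from 2 to 3 by adding Dnaja2 (0.56, adjusted p 0.0482 in edgeR).

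On log2(TPM + 1) the median of all genes moved to -0.20 for 42 °C against 44 °C and to 0.11 for footprints at H2O2 7 h. The share of calls that were higher went from 50.4% to 28.9% and from 61.9% to 74.3% there, from 50.2% to 36.1% for mRNA at KCl 2 h, from 52.7% to 68.2% for H2O2 against KCl at 2 h, and from 59.7% to 80% for footprints at H2O2 2 h. Depth differed between footprint and RNA libraries, and its part in the number of footprint calls was not tested.

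Sign changes were these, as log2 values. On log2(TPM + 1) the values were mRNA at 44 °C Dnaja2 0.0086, mRNA at H2O2 2 h Dnajb6 -0.038, mRNA at H2O2 7 h Dnajb6 -0.028, mRNA at KCl 2 h Dnajb1 -0.032 and Bag2 -0.00073. On log2(TPM + 1) the values were mRNA at KCl 7 h Dnajb1 -0.011 and Dnajb4 -0.054 and Dnajb2 -0.016, mRNA at 42 °C against 44 °C Bag1 -0.11, mRNA at H2O2 2 h against KCl 2 h Dnajb1 0.087 and Bag1 0.093, footprints at H2O2 7 h Dnaja2 6.8e-05. On log2(TPM + 1) the values were footprints at KCl 2 h Dnajb6 -0.082, footprints at KCl 7 h Dnajb2 -0.090. Without the filter on low counts the values were mRNA at H2O2 2 h Dnajb6 -0.0083. With only the 2 groups compared the values were mRNA at KCl 7 h Dnajb4 -0.010 and Dnajb2 -0.0039, mRNA at H2O2 2 h against KCl 2 h Dnajb1 0.0026 and Bag1 0.0021. With DESeq2 the values were footprints at H2O2 2 h Dnajb1 0.0068. With RLE scaling the values were footprints at H2O2 2 h Dnajb1 0.0065.

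Leaving out each library in turn gave these ranges where the sign changed. In mRNA at 42 °C they were Dnajb2 -0.094 to 0.015. In mRNA at H2O2 2 h they were Dnajb1 -0.027 to 0.075, Dnajb6 -0.070 to 0.028. In mRNA at KCl 2 h they were Dnajb1 -0.0088 to 0.13. In mRNA at KCl 7 h they were Dnajb2 -0.0054 to 0.10. In mRNA at KCl 7 h against KCl 2 h they were Dnajb1 -0.039 to 0.10, Dnaja1 -0.020 to 0.15, Dnaja2 -0.050 to 0.17, Bag1 -0.011 to 0.10. In mRNA at H2O2 2 h against KCl 2 h they were Dnajb1 -0.075 to 0.059, Dnaja2 -0.075 to 0.15, Bag1 -0.058 to 0.035. In footprints at H2O2 2 h they were Dnajb1 -0.11 to 0.11, Bag2 -0.28 to 0.00055, Bag3 -0.073 to 0.73. In footprints at KCl 2 h they were Dnaja2 -0.012 to 0.22. In footprints at KCl 7 h they were Dnajb1 -0.076 to 0.41, Dnajb2 -0.091 to 0.36. In efficiency at H2O2 2 h they were Dnajb1 -0.20 to 0.011, Bag2 -0.23 to 0.043, Bag3 -0.058 to 0.71. In efficiency at H2O2 7 h they were Dnajb1 -0.13 to 0.17, Dnaja1 -0.28 to 0.018, Bag3 -0.053 to 0.68. In efficiency at KCl 2 h they were Dnaja1 -0.30 to 0.017, Bag2 -0.013 to 0.35. In efficiency at KCl 7 h they were Dnajb1 -0.13 to 0.36, Dnajb2 -0.11 to 0.34, Bag2 -0.68 to 0.14, Bag3 -0.12 to 0.59.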
